A study of Danio rerio with 20 samples.

Results

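The Sox3-only sites are places in the zebrafish genome where Sox3 was called in gastrula embryos with and without added retinoic acid, and where none of the other 3 factors studied was called. They are peaks of Sox3 control replicate 1 on chromosomes 1 to 25 that overlap, by at least 1 bp, a peak in both Sox3 atRA lists and in the other Sox3 control list. They overlap no peak in any of the 12 lists of Raraa, Hoxb1b and Meis2b from the same stage. In all, 2273 sites met this rule, which is 2.20% of the 103127 peaks of Sox3 control replicate 1 and 7.28% of the 31205 peaks kept in all 4 Sox3 lists. The other 28932 kept sites overlapped at least 1 of the 12 lists and are called co-occupied sites here. The sites were thus chosen by measured values, the peak calls of these lists, so neither their Sox3 peaks nor their absence from the 12 lists is a result.

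Sox3 is a SoxB1 transcription factor with an HMG-box DNA-binding domain, known for its roles in early ectoderm and in neural progenitors. Retinoic acid is the ligand of the retinoic acid receptors, to which Raraa belongs, and it patterns the hindbrain and trunk. Hoxb1b is a Hox factor of the early hindbrain whose gene responds to retinoic acid, and Meis2b is a TALE homeodomain factor, a class of cofactors that bind DNA with Hox proteins.

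All libraries came from whole wild-type zebrafish embryos and were made by ChIPmentation, in which the Tn5 transposase adds sequencing adapters to immunoprecipitated chromatin on the beads. At 80% epiboly, a stage of gastrulation, each of the 4 antibodies was used on embryos given 0.1 µM all-trans retinoic acid (atRA) at 30% epiboly and on control embryos, with 2 libraries per group. Control embryos of 2 later stages, 5 somites and 24 hours post fertilisation (hpf), gave 2 more Raraa libraries each, and these 4 had no part in the rule. Their stage is that of the sample titles and stage labels, whereas the treatment text, the same for every sample, names 80% epiboly as the stage of collection. If that text held for these 4 libraries, the values given here as later would not be later. Nothing in the labels says that libraries of a group came from separate clutches, so the spread between them may be technical. In whole embryos, binding in fewer nuclei and weaker binding per nucleus cannot be told apart.

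Each deposited list gives, per peak, the authors' fold enrichment, a ratio of summit coverage to local background, with its p and q. The Sox3 lists held 135299 and 132311 peaks on the 25 chromosomes with atRA, against 103127 and 105524 in controls. Depth was unequal. Background coverage, recovered from the peak values, was 1.12 and 1.02 fragments per base in the Sox3 atRA libraries, against 0.425 and 0.969 in Sox3 control replicates 1 and 2. The 12 lists of other antibodies ranged from 23920 to 254915 peaks, with backgrounds of 0.199 to 2.17 fragments per base. A Sox3-only call in the shallow lists therefore means that no peak was detectable at that depth, not that the factor was absent.

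Sox3-only sites lay at one end of a gradual series. Among kept sites, 2273 overlapped 0 of the 12 other lists, 3053 overlapped exactly 1, and the largest class was the 3751 sites that overlapped 4. A total of 400 sites overlapped all 12. The share kept was lowest at this end. Of the 33658 peaks of Sox3 control replicate 1 that overlapped none of the 12 lists, 6.75% were kept in all 4 Sox3 lists, against 41.6% of the peaks that overlapped at least 1.

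**Figure D1:**
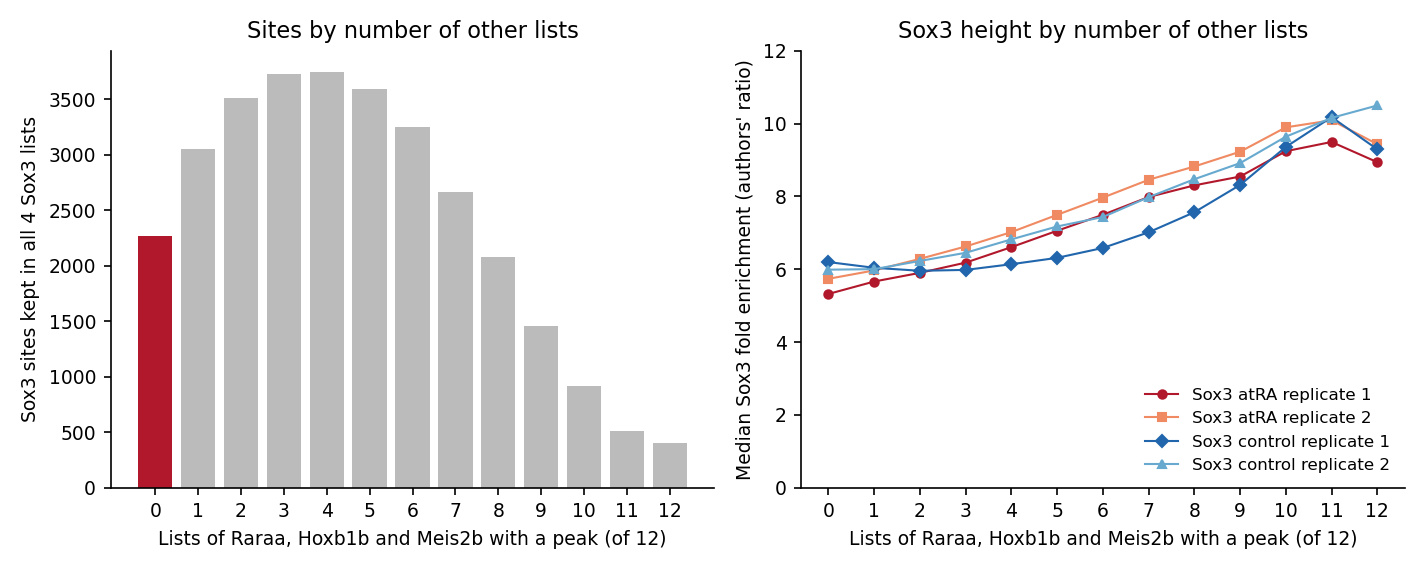
Left, the number of Sox3 sites kept in all 4 Sox3 lists (vertical axis) by how many of the 12 lists of other antibodies had a peak there (horizontal axis); the red bar is the 2273 Sox3-only sites. Right, the median authors' fold enrichment of Sox3 in each library for the same classes. All 4 libraries are higher at 9 other lists than at 0. In control replicate 1 the median at 0 lists, 6.20, is above those at 1, 2, 3 and 4 lists (6.04, 5.96, 5.98 and 6.14).

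The lists that most often set the boundary were Raraa atRA replicate 1 and Hoxb1b atRA replicate 1. Among the 3053 sites with exactly 1 other list, that list was Raraa atRA replicate 1 at 860 sites and Hoxb1b atRA replicate 1 at 823. Raraa control replicate 1 was the single list at only 47 sites, and Meis2b control replicate 1 at 48. Raraa control replicate 2 was the single list at 278, although its 131936 peaks outnumbered the 86866 of Hoxb1b atRA replicate 1. Of all kept sites, 71.3% had a peak in Raraa atRA replicate 1 and 70.9% in Hoxb1b atRA replicate 1. The shares were 14.8% and 45.6% in Raraa control replicates 1 and 2, and 16.3% in Meis2b control replicate 1. Sites just outside the boundary were close to the members in height. With exactly 1 other list the median Sox3 fold enrichment was 5.66 and 5.97 in atRA replicates 1 and 2 and 6.04 and 6.00 in control replicates 1 and 2. Another 2743 sites missed the set because 1 of the other Sox3 lists had no peak, and 1190 of these lacked it in Sox3 control replicate 2. Their median fold enrichment was 4.66 and 4.93 in atRA replicates 1 and 2, and 4.91 and 5.08 in control replicates 1 and 2. The 100 members with the highest q in their weakest Sox3 list had medians of 4.25 and 4.96 in atRA replicates 1 and 2, and 3.55 and 5.08 in control replicates 1 and 2. The number of sites depended on this boundary. It was 3463 without Sox3 control replicate 2, the only single library whose omission moved it by more than 1.5 times. Omitting Sox3 control replicate 1 came close to that, with 3406 sites. Without Raraa atRA replicate 1 the number was 3133.

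The sites were of moderate Sox3 height. Their median fold enrichment was 5.32 and 5.74 in Sox3 atRA replicates 1 and 2, against 6.20 and 5.99 in Sox3 control replicates 1 and 2. Both atRA medians lay below both control medians. The medians of the whole Sox3 lists did so too, at 4.47 and 4.62 with atRA against 4.91 and 4.92 in controls. Co-occupied sites had medians of 6.93 and 7.43 with atRA and 6.49 and 7.11 in controls, so the Sox3-only median was lower in each of the 4 libraries. Summits of Sox3-only sites were covered by a median of 14 fragments in both atRA libraries, and by 10 and 15 in control replicates 1 and 2. The sites were also narrower than co-occupied sites. Median widths were 261 and 252 bp with atRA and 219 and 290 bp in controls. At co-occupied sites they were 441 and 427 bp with atRA and 281 and 430 bp in controls. Sites with exactly 1 other list were closer, at 297 and 282 bp with atRA and 228 and 320 bp in controls. A wider interval meets more peaks of any list, and how far width or height accounts for membership was not tested.

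**Figure D2:**
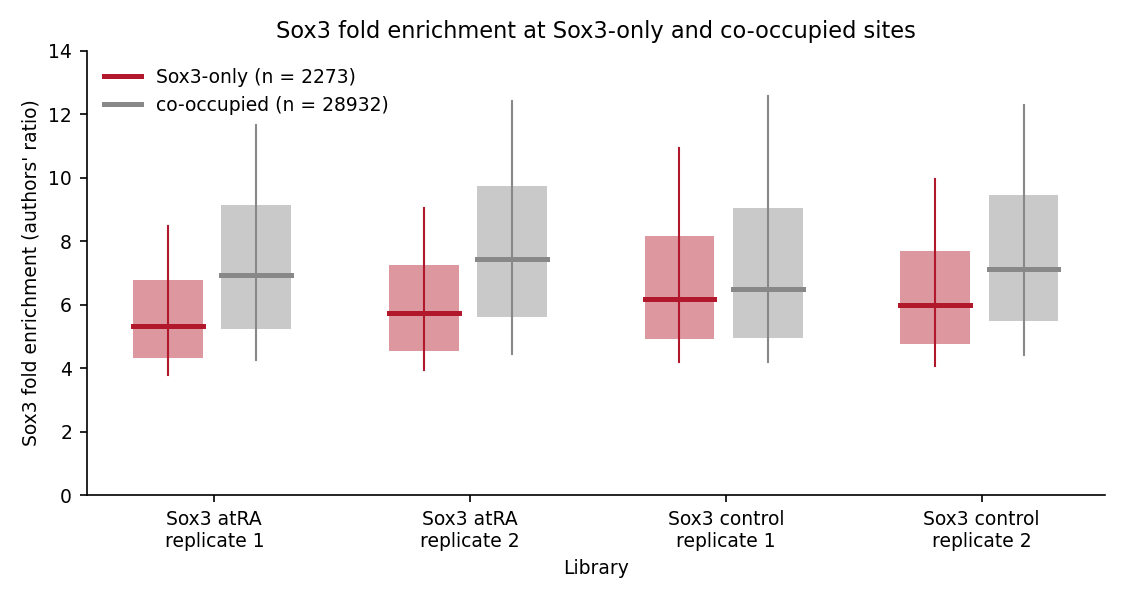
Authors' fold enrichment of Sox3 (vertical axis, a ratio) in each of the 4 Sox3 libraries at Sox3-only sites (red) and co-occupied sites (grey). Thick lines are medians, boxes run between the lower and upper quartiles, and thin lines between the 10th and 90th percentiles over sites; the medians are closest in control replicate 1, at 6.20 against 6.49.

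Fewer of the sites than of all kept sites were among the strongest Sox3 peaks. Of the 2273, 167 and 180 ranked within the 10000 strongest peaks by p in atRA replicates 1 and 2, and 516 and 355 did so in control replicates 1 and 2. As shares these were 7.35% and 7.92% with atRA and 22.7% and 15.6% in controls, against 30.7% and 30.9% of all kept sites with atRA and 29.9% and 32.8% in controls. Those 10000 came from whole lists of 135299 and 132311 peaks with atRA and of 103127 and 105524 in controls. Compared with all peaks of a list, the sites thus ranked there about as often with atRA and more often in controls. The atRA lists were longer, and a rank depends on the other peaks of its list. Whether the lower atRA shares reflect a change at these sites was not tested. Only 58 (2.55%) ranked there in all 4 lists, against 15.1% of all kept sites, and 1552 (68.3%) in none, against 49.0%. Sites with exactly 1 other list were close to this, with 2.75% in all 4 and 69.4% in none. At the other extreme, 33 members had a q above 0.01 in their weakest list. Requiring a q of at most 1e-05 in all 4 Sox3 lists left 824 sites.

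Heights at individual sites were compared between libraries by rank. Across the 2273 sites, Spearman's rho of fold enrichment was 0.57 between the atRA libraries and 0.36 between the control libraries. Between an atRA and a control library it ran between 0.30 and 0.45. Across co-occupied sites the same values were 0.79 between the atRA libraries, 0.52 between the controls, and 0.48 to 0.62 between treatments. These are descriptions across sites, which share libraries and are not independent. Summits of a Sox3-only site in 2 libraries lay a median of 45 bp apart between the atRA libraries, 49 bp apart between the controls and 48 to 51 bp apart between treatments. At co-occupied sites these medians were 51, 59 and 58 to 60 bp, and at sites with exactly 1 other list 52, 53 and 52 to 59 bp. Only overlapping peaks were compared, so peak width limits the distance, and Sox3-only sites were the narrower.

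The 10 sites with the best mean rank by p over the 4 Sox3 libraries are given by position (coordinates on GRCz10, the build in the submitters' processing notes). The first was on chromosome 13, 31011511 to 31011852, with a fold enrichment of 15.2 and 13.4 in atRA replicates 1 and 2, against 23.9 and 16.3 in control replicates 1 and 2. Its summit was covered by 62 and 50 fragments with atRA and by 72 and 70 in controls, and the 4 summits lay within 8 bp of that in control replicate 1. Both atRA values were below both control values at this site.

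The second site was on chromosome 4, 5516140 to 5516498, with 9.32 and 9.57 with atRA, against 17.3 and 10.4 in controls. The third was on chromosome 20, 29840862 to 29841307, with 13.7 and 20.6 with atRA, against 19.4 and 16.2 in controls. The treatments did not overlap at the second site and overlapped at the third. The site at rank 9, on chromosome 16, 8721814 to 8722124, had 18.7 and 16.4 with atRA, against 14.5 and 23.8 in controls, so the atRA values fell between the control values.

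The fifth, on chromosome 2, 47569329 to 47569764, had 5.59 and 6.32 with atRA, against 8.99 and 8.60 in controls. Its fold enrichment was the lowest of the 10 in every Sox3 library, although its summit was covered by 75 and 76 fragments with atRA and by 59 and 104 in controls. It was also the only one of the 10 with a Raraa peak at a later stage, in both 24 hpf lists, with a Raraa fold enrichment of 3.64 and 5.90. Over the 10 sites, fold enrichment ran from 5.59 to 20.6 with atRA and from 8.60 to 23.9 in controls. The remaining 5 lay on chromosome 15 (17174050 to 17174350), chromosome 1 (30171388 to 30171659 and 48674145 to 48674465), chromosome 20 (8037634 to 8037868) and chromosome 6 (19984055 to 19984320). At 6 of the 10 sites both atRA values were below both control values, against 30.4% of all Sox3-only sites and 22.3% of all kept sites. The 10 were ranked by p in these same libraries, so this count is only a description. The summits in all 4 lists lay within 75 bp of that in control replicate 1 at all 10.

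**Figure D3:**
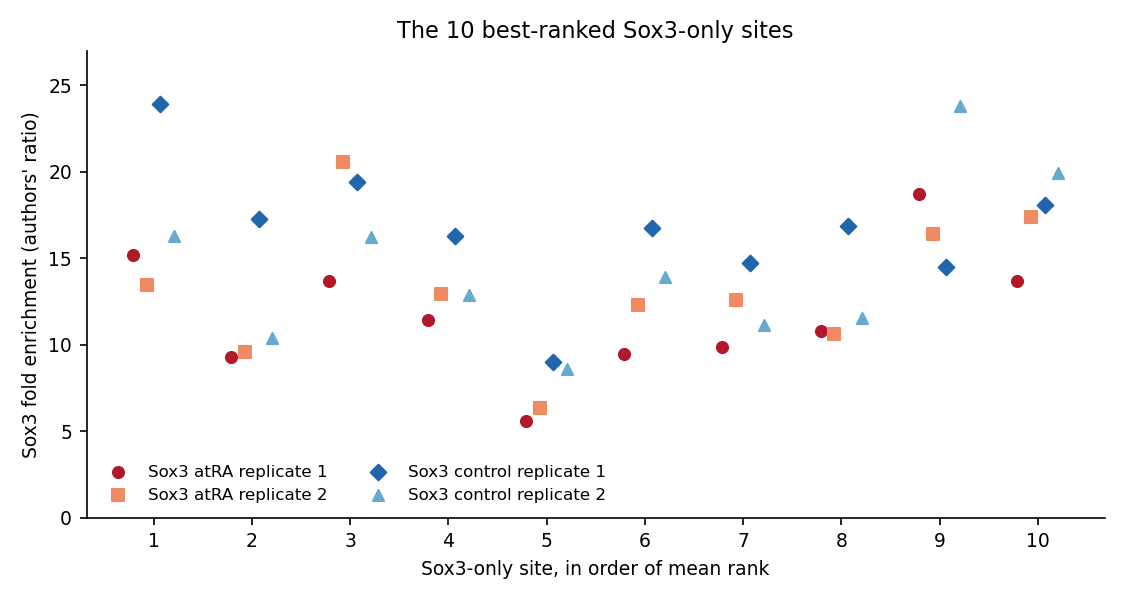
Authors' fold enrichment of Sox3 (vertical axis, a ratio) at the 10 best-ranked Sox3-only sites, in order of mean rank (horizontal axis), with 1 point per Sox3 library. Control replicate 1 (dark blue diamonds) reaches 23.9 at the first site; at the fifth both atRA values (5.59 and 6.32) lie below both control values.

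The study's treatment comparison asked what atRA did to factor binding, and here it concerns height alone, since the rule required a peak with and without atRA. The median log2 fold enrichment of Sox3-only sites was 2.41 and 2.52 in atRA replicates 1 and 2, against 2.63 and 2.58 in control replicates 1 and 2, a difference of -0.14. The same Sox3 peaks chose the sites, so this difference is a description and no p is given. Median fold enrichment of the whole Sox3 lists was also lower with atRA, but the atRA lists were longer. Over all kept sites the treatments overlapped, with medians of 6.77 and 7.25 with atRA against 6.46 and 7.09 in controls. At sites with exactly 1 other list both atRA medians, 5.66 and 5.97, lay below both control medians, 6.04 and 6.00. A lower value was thus shared with the sites most like the Sox3-only sites, but not with kept sites as a whole. Relative to co-occupied sites of the same library, the median log2 value was -0.38 and -0.37 with atRA, against -0.066 and -0.25 in controls, a difference of -0.22, likewise with no p. Without Sox3 atRA replicate 1 the first difference was -0.0862. Without Sox3 control replicate 1, the shallowest of the 4, the second was -0.13.

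Counted by site, both atRA values lay below both control values at 690 Sox3-only sites (30.4%), against 22.3% of all kept Sox3 sites. Both lay above at 262 (11.5%), against 20.9% of all kept sites. After setting each library to the median of all kept sites, the counts were 768 (33.8%, against 25.4% of all kept sites) and 225 (9.90%, against 18.4%). With summit coverage over the library's background in place of fold enrichment they were 1110 (48.8%, against 36.4%) and 75 (3.30%, against 12.2%).

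The direction depended on which lists the sites had to avoid, as measured by a choice made after these values were seen. When the 6 atRA lists of the other antibodies alone were barred, 3149 sites remained, and the difference between atRA and control was -0.13. When the 6 control lists alone were barred, 10738 sites remained, and the difference was 0.0375, with medians of 2.66 and 2.75 with atRA against 2.64 and 2.71 in controls. Relative to the barred sites it was -0.21 with the atRA lists barred and -0.021 with the control lists barred. Both sets hold all 2273 Sox3-only sites, which make up most of the 3149, so they are not independent of each other or of the Sox3-only result. The lower Sox3 height with atRA was measured in the set without a called peak in the 6 atRA lists. It was not found in the larger set without one in the 6 control lists, taken as a whole. These settings also differed in how many sites they left, 3149 against 10738, and the cause was not tested.

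**Figure D4:**
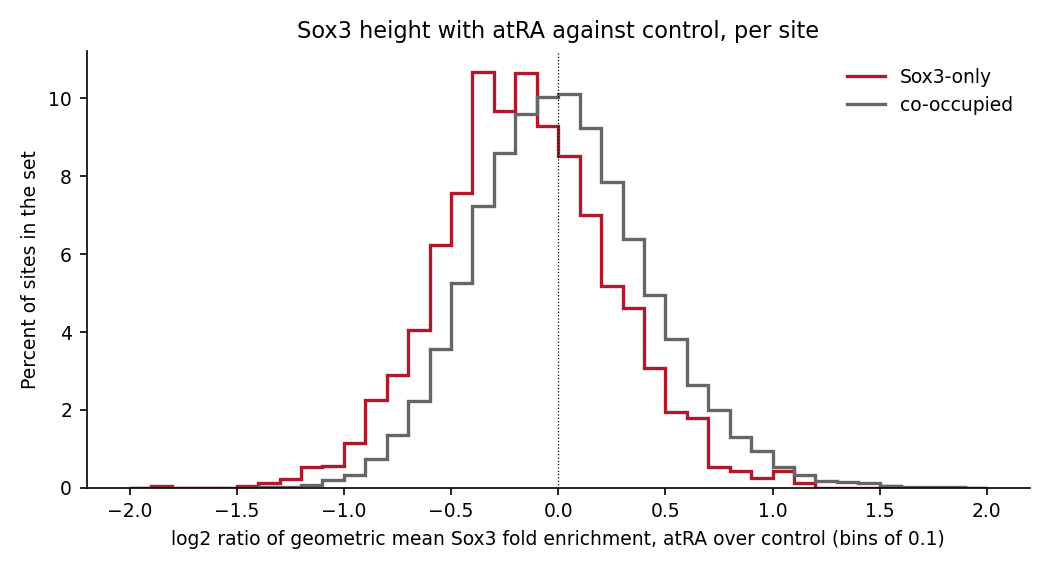
Distribution over sites of the log2 ratio of geometric mean Sox3 fold enrichment, atRA over control (horizontal axis, bins of 0.1), as the percent of Sox3-only sites (red) and of co-occupied sites (grey) in each bin (vertical axis). The red curve has its median at -0.16 and the grey curve at 0.0073.

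The extremes among sites whose treatments did not overlap were picked out after their values were seen. The largest fall was on chromosome 4, 25329082 to 25329468, with 4.72 and 5.46 with atRA, against 17.0 and 19.0 in controls, a log2 ratio (of geometric means) of -1.83. Next came chromosome 11, 29697865 to 29698137, with 3.23 and 5.08 with atRA, against 12.2 and 10.8 in controls. The largest rise was on chromosome 7, 61367404 to 61367556, with 11.6 and 12.7 with atRA, against 4.39 and 3.82 in controls, a log2 ratio of 1.57. At that site the atRA summits lay 266 and 289 bp from the summit in control replicate 1, outside its peak, so the higher values belong to a neighbouring maximum. The second rise, on chromosome 3, 20294011 to 20294178, had 8.30 and 12.4 with atRA, against 4.91 and 4.06 in controls. Its atRA summits were shifted by 148 and 119 bp, and so also lay outside the peak of control replicate 1. Shifts were not confined to these sites. The summits of atRA replicates 1 and 2 lay within 100 bp of that in control replicate 1 at 74.7% and 77.3% of Sox3-only sites. The ratios and counts by site can therefore compare different maxima at some sites.

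Whether Raraa was later called at these sites could be read from libraries that the rule did not use. A Raraa peak overlapped 164 (7.22%) and 171 (7.52%) of the 2273 sites in 5 somites replicates 1 and 2, against 36.9% and 38.3% of all kept Sox3 sites. At 24 hpf it overlapped 186 (8.18%) and 200 (8.80%) in replicates 1 and 2, against 30.6% and 44.2% of all kept sites. The 24 hpf shares were higher than the 5 somites shares by a mean of 1.12 percentage points, and both 24 hpf values exceeded both 5 somites values (p = 0.333, exact permutation test, two-sided, the smallest that 2 libraries against 2 allow; adjusted over 4 comparisons 0.333). With a q of at most 1e-05 in every list this difference turned to -0.408 points, and with an overlap of at least 0.5 of the site it was 0.534 points and the stages overlapped (exact permutation p = 1.0 in both). The 4 later libraries had similar list lengths, 109146 to 116351 peaks, and backgrounds of 0.393 to 0.686 fragments per base.

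Co-occupied sites carried later Raraa peaks more often in each library. Their shares were 39.3% and 40.8% at 5 somites and 32.4% and 47.0% at 24 hpf, so the Sox3-only shares differed from them by -24.2 to -38.2 points, with a mean of -31.9 points (p = 0.125 in a two-sided exact permutation of signs, the lowest value 4 libraries can give; adjusted 0.333). The mean difference was -19.2 points with a q of at most 1e-05 in every list and -19.4 points with an overlap of at least 0.5 of the site. Weighting the co-occupied sites to the same Sox3 fold enrichment gave -29.4 points. The rule had removed every site with Raraa at 80% epiboly, while most co-occupied sites had one. That choice favoured a lower later share beforehand, so the p does not test the sign of the difference. Against the 3998 co-occupied sites that also had no Raraa peak then, the difference was -8.76 points. Against sites with exactly 1 other list it was -6.27 points. These last comparisons were chosen after the values were known. The later share grew with the number of other lists at gastrulation, up to 86.0% to 95.8% of the sites that had all 12. Median site width in Sox3 control replicate 1 was also larger there, 481.5 bp against 219 bp at 0 lists. How far width accounts for the later shares was not tested.

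**Figure D5:**
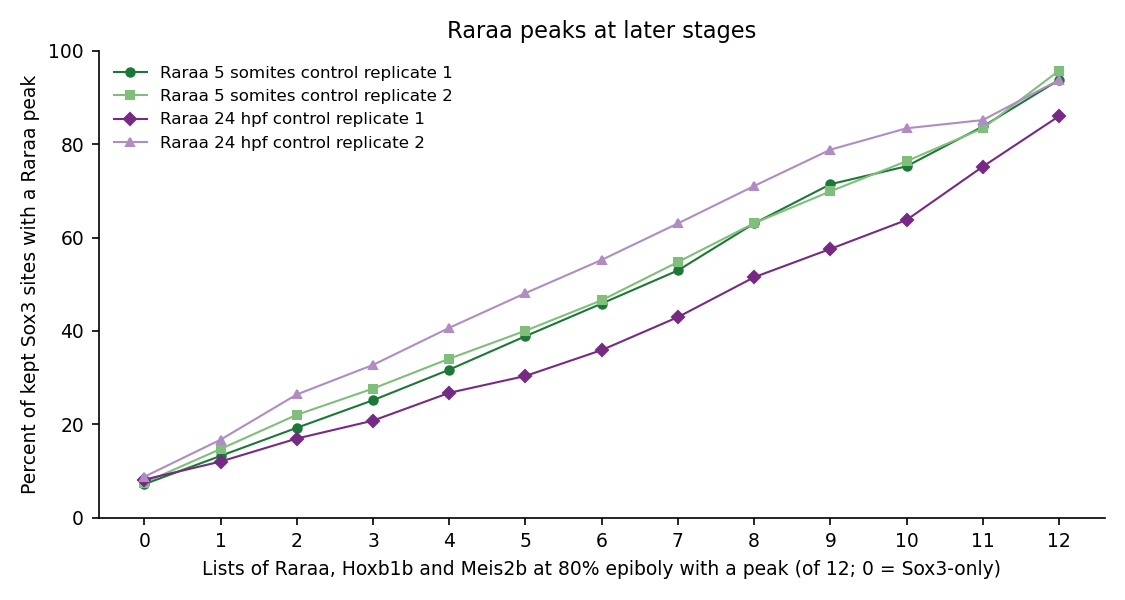
Percent of kept Sox3 sites that overlap a Raraa peak in each later control library (vertical axis) by the number of the 12 other lists with a peak there at 80% epiboly (horizontal axis; 0 is the Sox3-only class). At 0 the 4 libraries lie between 7.22% and 8.80%, and each line climbs with the number of lists. Sites at 12 lists were also wider than those at 0.

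Raraa peaks at Sox3-only sites were seldom shared between libraries. At least 1 later list had a peak at 553 sites (24.3%), against 69.1% of all kept sites. No later list had one at 1720 sites, 411 sites had 1 list, 117 had 2, 24 had 3 and 1 had all 4. Both 5 somites lists had a peak at 35 sites (1.54%, against 22.9% of all kept sites), and both 24 hpf lists at 34 (1.50%, against 20.3%). The sets most like the Sox3-only sites were also low. These shares were 3.93% and 3.37% at sites with exactly 1 other list. At co-occupied sites without a Raraa peak at 80% epiboly they were 4.93% and 4.20%. The site with all 4, singled out after its values were seen, was on chromosome 23, 42983344 to 42983581. Its Raraa fold enrichment was 4.60 and 4.65 at 5 somites and 4.64 and 4.86 at 24 hpf. Its Sox3 values were 6.39 and 7.45 with atRA and 5.29 and 8.64 in controls. An other-antibody peak at 80% epiboly lay 6 bp from its edge.

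Where Raraa was called later, the median height of its peaks was close to that of the whole list, and few were among the strongest. The median Raraa fold enrichment at Sox3-only sites was 4.63 and 4.74 at 5 somites and 4.15 and 4.89 at 24 hpf, and the medians of the whole lists were 4.71 and 4.73 at 5 somites and 4.23 and 4.76 at 24 hpf. Among the 10000 strongest peaks of their list were 3.05% and 4.09% of these peaks at 5 somites and 4.84% and 6.50% at 24 hpf, where those 10000 made up 8.59% to 9.16% of each list. At co-occupied sites the share was 24.9% to 29.6%. At the co-occupied sites without a Raraa peak at 80% epiboly it was lower, 6.46% to 8.57%. Summit distances were taken from the later Raraa peak to the Sox3 summit of control replicate 1. For Sox3-only sites their medians were 57.5 and 53 bp at 5 somites and 64 and 53.5 bp at 24 hpf. For co-occupied sites they were 72 to 79 bp. Only Raraa peaks that overlapped the site were measured, so its width limits the distance. Median widths in control replicate 1 were 219 bp for Sox3-only sites and 281 bp for co-occupied sites.

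Peaks of the other factors lay about as far from Sox3-only sites as from other Sox3 peaks that overlap none of the 12 lists. The nearest peak of any of the 12 lists was a median of 796 bp from the edge of the site. It was closer than 100 bp at 337 sites (14.8%), closer than 500 bp at 887 (39.0%) and closer than 10000 bp at all but 7 (0.308%). For the 31385 peaks of Sox3 control replicate 1 that also met none of the 12 lists but were not kept in all 4 Sox3 lists, a comparison chosen after the values were known, the median was 816 bp. Of these, 12.5% lay closer than 100 bp, 37.4% closer than 500 bp and 0.558% at 10000 bp or more. By antibody, the median gap was 1292 bp to a Raraa peak, 1778 bp to a Hoxb1b peak and 2804 bp to a Meis2b peak, where list length differed between antibodies and the longest list, of 254915 peaks, was a Raraa list. Among the 10 best-ranked sites, 4 had such a peak closer than 500 bp.

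The 7 sites at 10000 bp or more from any other-antibody peak were picked out after their values were seen, and 5 of them were on chromosome 4. Of all Sox3-only sites 3.92% were on that chromosome, against 3.08% of all kept sites. The most distant lay on chromosome 4, 65423868 to 65424147, at 42956 bp, with a Sox3 fold enrichment of 12.7 and 11.9 with atRA, against 7.72 and 9.65 in controls. The others on chromosome 4 were 32754441 to 32754577, 44812889 to 44813099, 59161434 to 59161650 and the site of the largest fall, 25329082 to 25329468. The remaining pair were chromosome 22, 7765665 to 7765888, and chromosome 2, 53910899 to 53911125.

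Chromosome 4 also held the largest share of Sox3-only sites among its kept Sox3 sites, 89 of 961 (9.26%), while kept sites as a whole were sparsest there, at 12.5 per Mb. On the other chromosomes the share ran from 5.40% on chromosome 23, where kept sites were densest at 29.2 per Mb, to 9.02% on chromosome 14. Along the chromosomes, the nearest other kept Sox3 site was a median of 11472 bp from the summit of a Sox3-only site. For a co-occupied site this distance was 7926.5 bp. For sites with exactly 1 other list it was 10657 bp, so wide spacing was not particular to Sox3-only sites. Another Sox3-only site lay within 10000 bp at 140 of the 2273 (6.16%), and a co-occupied site did so at 947 (41.7%). Co-occupied sites outnumbered Sox3-only sites, 28932 against 2273. How far that accounts for these shares was not tested.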

How the data were processed

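ChIP-seq peak lists of 20 libraries in 10 groups were used, 1 list per library. The labels' protocols describe sonicated chromatin tagged with Tn5. The submitters' processing notes name Bowtie, SAMtools, MACS2 and GRCz10/danRer10, without versions or roles; duplicate handling and an input control are not given in the sources used here. Fold enrichment (a ratio), −log10 p and −log10 q are the authors' deposited values per peak, called on each library separately; the largest q in a list was at most 0.05. Groups and stages were taken from the sample titles; the names inside the Sox3 control lists both carry the number 2.

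Peaks on 25 chromosomes were compared by overlap of at least 1 bp; where several peaks overlapped a site, the one with the best p was used. Summit coverage k and background b were recovered from fold = (k+1)/(b+1) and the Poisson p, solved for 100% of peaks within 0.002 in −log10 p; up to 3.16% of the peaks of a list had more than 1 solution, and the closest was taken. The 0.001 quantile of b was the library background. Total reads are unknown. The overlap and recovery code was tested on simulated data. One value per library entered each exact permutation test, with Benjamini-Hochberg adjustment over the 4 comparisons; p is given only for the 2 of later Raraa peaks, since the Sox3 peaks chose the sites (Python 3.11.15, NumPy 2.4.6, SciPy 1.17.1, pandas 2.3.3). The sites, tests and named-site rule (the 10 best by mean rank of p) were chosen with earlier results of these data known. Gene annotation and genome sequence were not used here.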

Additional observations from a re-analysis of the deposited data

How the results depend on the processing

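The number of Sox3-only sites was 2023 to 2151 with anchors from the other Sox3 lists, and 83.5% to 86.0% of the 2273 sites were found again. It was 3066 with a q of at most 1e-05 in every list and 2999 with an overlap of 0.5 of the anchor. It moved to 824 with that q in the Sox3 lists, to 7807 with it in the 12 other lists, and to 7919 with the 12 lists shortened to an equal 23920 peaks, a choice made after seeing the data. Leaving out one library at a time gave 2320 to 3463. The Sox3 difference between atRA and control ranged from -0.19 to -0.0862 with 1 library left out and was -0.54 with coverage over background. The log2 medians of that coverage were 3.65 and 3.78 with atRA, against 4.56 and 3.95 in control replicates 1 and 2. The highest was thus in control replicate 1, the shallowest Sox3 library. The difference reversed to 0.0375 when only control lists were barred, a setting that also keeps every Sox3-only site, and the cause was not tested. Relative to co-occupied sites it ranged from -0.31 to -0.13 with one library left out, and was -0.38 with coverage over background, -0.090 against sites with exactly 1 other list and -0.021 when only control lists were barred. The stage difference lay between 0.814 and 1.43 points when single libraries were omitted, was 0.534 with an overlap of 0.5 of the anchor, and reversed to -0.408 with a q of at most 1e-05 (exact permutation p = 1.0 in both). With single libraries omitted, the later difference from co-occupied sites lay between -34.5 and -29.8 points; it was -19.2 with a q of at most 1e-05 in every list and -19.4 with an overlap of 0.5 of the anchor. In a fit blocked on replicate number, the Sox3 values were -0.14 and -0.22, and the stage value was 1.12 with p = 0.5 (exact permutation of signs), the smallest possible. Deviations of same-numbered libraries correlated at -0.024 for Sox3 over 31205 kept sites. For Raraa the value was 0.024 over the 3625 kept sites with a peak in all 4 later lists. These values showed no pairing by replicate number, but cannot exclude that same-numbered libraries shared a clutch. No test could pass 0.05, so no call could be lost. Shallow lists limit what absence of a peak shows.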
